A study of Ovis aries with 32 samples.

Results

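The HOX genes were examined in 32 RNA-seq libraries of Tan sheep, which store fat in a broad tail. Members were all rows of the deposited table named HOXA, HOXB, HOXC or HOXD with a number. This gave 35 genes among 30722 rows, and no name stood on more than 1 row. HOXA3, HOXA6, HOXC8 and HOXD11 had no row of that name and are not analysed here. Whether equally numbered libraries of different tissues share a sheep is not stated. The animals were male, 3 months old and on 2 diets of 12 sheep each for 60 days after 10 days of adaptation. The control diet (CON) was a basal pellet, and the SA diet was that pellet with succinic acid, which cells oxidise in the tricarboxylic acid cycle, added at 1% of dry matter. Liver, tail fat and tissue labelled hypothalamus and pituitary were taken from 4 sheep of each diet, which gave 4 libraries in each of 8 groups. All groups received the basal pellet, and the labels name no genetic change in any of them.

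HOX genes encode homeodomain transcription factors that give cells their address along the head-to-tail axis. They lie in 4 clusters, A to D, and genes of the same paralog number in different clusters descend from the same ancestral gene. Low paralog numbers are switched on early and act near the hindbrain, and high numbers are switched on late and act in the trunk, the limbs and the tail. Cells of connective tissue and fat keep much of this code in adult life, so HOX levels differ between fat depots, whereas the forebrain develops ahead of the HOX domain.

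Values are TPM (transcript abundances relative to a total of 1000000), which are scaled within a library and per transcript length, so levels of different genes can be set side by side. TPM keeps no record of sequencing depth, which is unknown here, and the column sums ran from 936939 to 987320. Summed over 9 adipocyte markers, tail fat held 10980 to 75968 TPM and the other tissues at most 57.7 TPM. Of 9 hepatocyte markers, liver held 93444 to 107115 TPM in CON and 6953 to 28386 TPM in SA, without overlap. Defining markers were at low levels under the other labels: 7 anterior pituitary markers summed to 2.85 to 5.90 TPM in the libraries labelled pituitary, and 8 hypothalamic markers to 5.98 to 15.3 TPM in those labelled hypothalamus. The latter held 2579 to 4565 TPM of 6 striatum markers, and both held neuron markers at 1102 TPM or more, so both are used below as brain tissue under their labels. Mitochondrial transcripts took 20.2% to 27.9% of the liver CON libraries and 52.5% to 71.0% of the liver SA libraries, and 22.6% to 70.8% across tail fat. In bulk tissue, fewer cells of a type and less RNA per cell cannot be told apart.

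Tail fat carried a broad HOX code, liver a short anterior one, and the brain libraries next to none. The summed level of the 35 genes was 93.7, 149.1, 58.9 and 99.3 TPM in tail fat CON libraries 1 to 4, and 118.5, 73.0, 66.3 and 53.5 TPM in SA libraries 1 to 4. In liver the sum ran from 7.90 to 13.4 TPM in CON and from 3.67 to 10.1 TPM in SA. In the libraries labelled pituitary it ran from 1.18 to 6.09 TPM, and in those labelled hypothalamus from 0.43 to 3.90 TPM. The lowest tail fat library therefore stood above every library of the other 3 tissues.

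**Figure D1:**
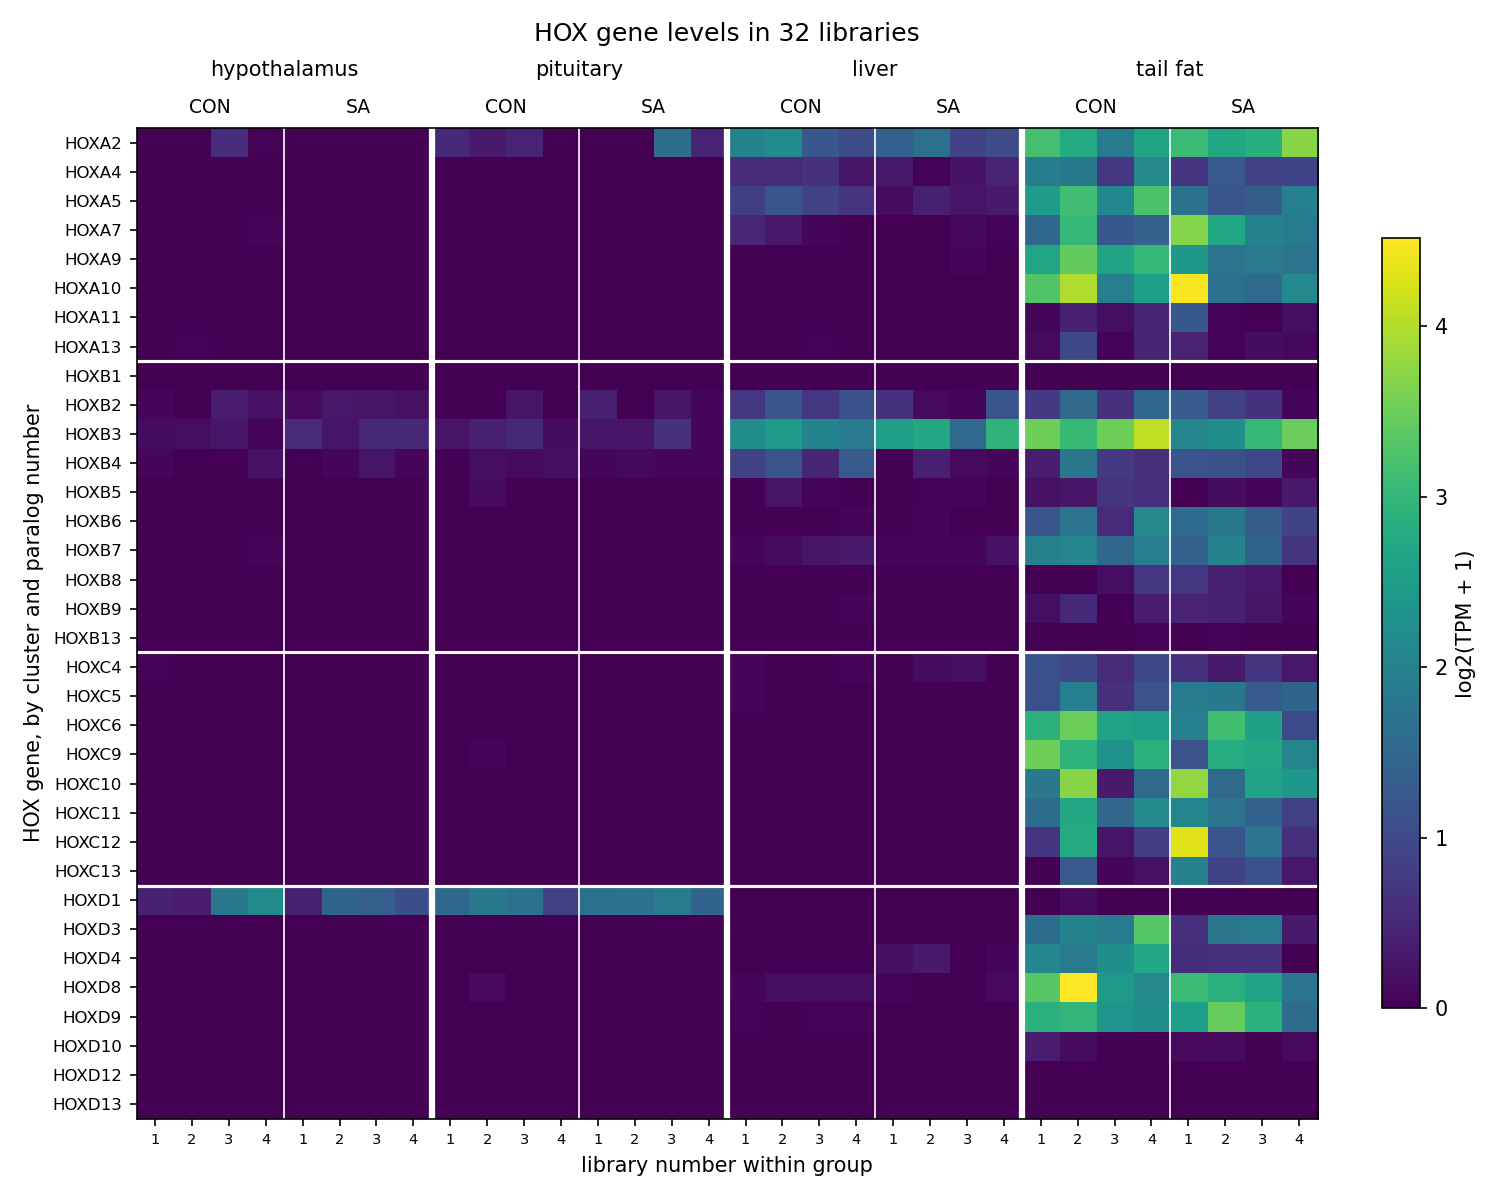
Level of each of 34 HOX genes, as log2(TPM + 1) in colour, in 32 libraries. Rows follow cluster and paralog number, columns follow tissue label, diet and library number, and the bright block covers tail fat, with HOXA2 and HOXB3 in liver and HOXD1 in the 2 brain tissues outside it.

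The reach along the clusters differed in the same order. HOXB1, HOXD12 and HOXD13 were listed at 0 in all 32 libraries. Of 35 members, 25 were listed at 0 in all 8 libraries labelled hypothalamus, 26 in the 8 labelled pituitary, 16 in liver and 3 in tail fat. Among the 15 members of paralogs 9 to 13, which pattern the lower trunk, hind limb and tail, the highest value in any library was 0.03 TPM in hypothalamus, 0.06 TPM in pituitary and 0.04 TPM in liver, against 21.2 TPM in tail fat. A level of 1 TPM was reached in any library by 1 member in hypothalamus (HOXD1), 2 in pituitary (HOXA2 and HOXD1), 5 in liver (HOXA2, HOXA5, HOXB2, HOXB3 and HOXB4) and 25 in tail fat. Under 1 TPM in every library were 9 members, among them HOXA13, HOXB9, HOXB13 and HOXD10.

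**Figure D2:**
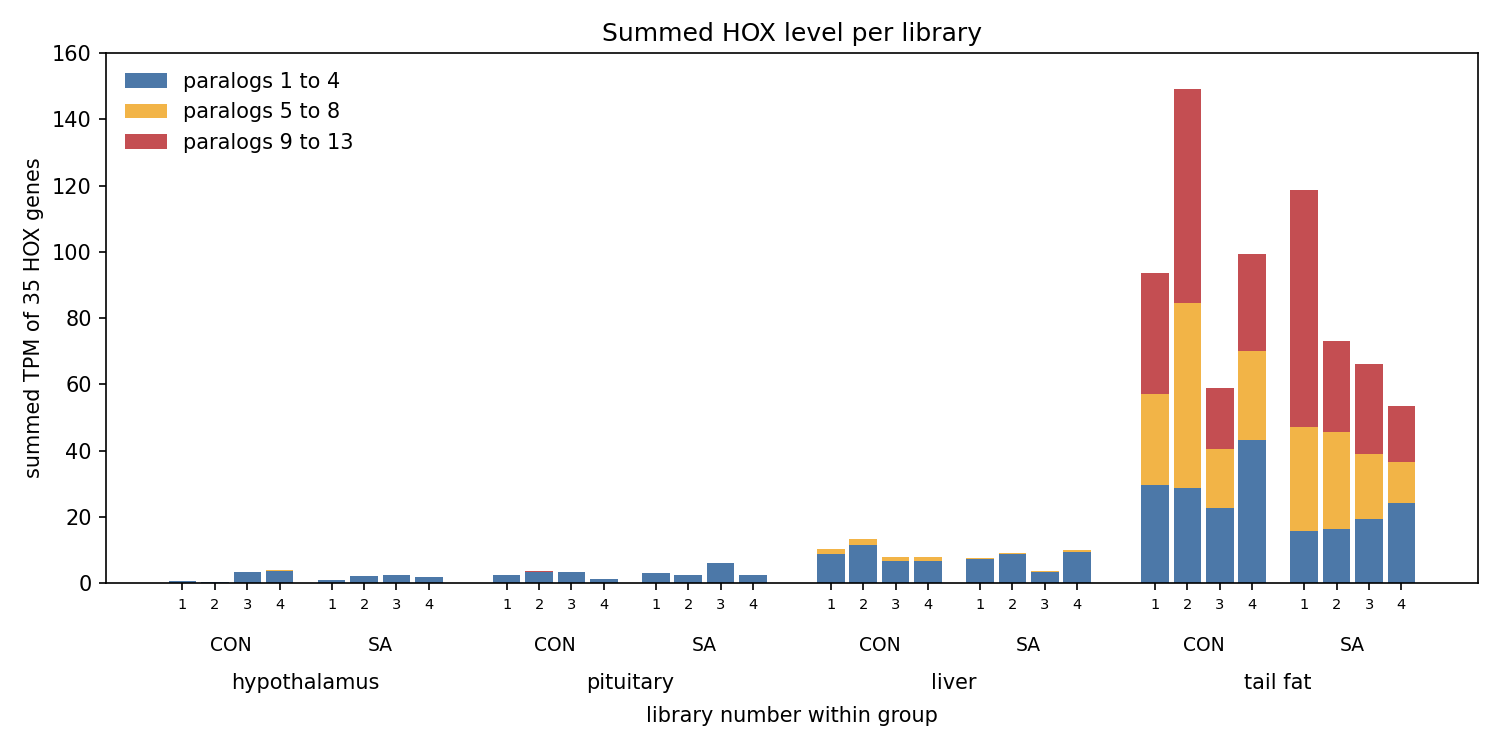
Summed TPM of the 35 HOX genes in each library, stacked by paralog number. Bars start at 0, and every tail fat bar (53.5 to 149.1 TPM) is taller than every bar of the other tissues (at most 13.4 TPM), with paralogs 9 to 13 visible in tail fat.

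Requiring 1 TPM in all 4 libraries of a group left 14 members in tail fat CON, 12 in tail fat SA, 2 in liver CON, 1 in liver SA, 1 in pituitary SA and none in the other 3 groups. In tail fat CON these were HOXA2, HOXA5, HOXA7, HOXA9 and HOXA10, HOXB3 and HOXB7, HOXC6, HOXC9 and HOXC11, and HOXD3, HOXD4, HOXD8 and HOXD9. Tail fat SA had HOXC5 and HOXC10 in addition and lacked HOXB7, HOXC11, HOXD3 and HOXD4. The paralogs of this set ran from number 2 to 11 in CON and 2 to 10 in SA, and in both diets cluster A reached number 10 and cluster D number 9. Summed over paralogs of the same number, tail fat CON was highest at number 9, with 19.1 TPM ± 4.76 (SD, n = 4), then at number 3 with 15.3 ± 6.51 and number 10 with 12.1 ± 10.5 (both SD, n = 4), and the ranges of these 3 overlapped. Number 13 summed to 0.773 TPM ± 1.08 (SD, n = 4).

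**Figure D3:**
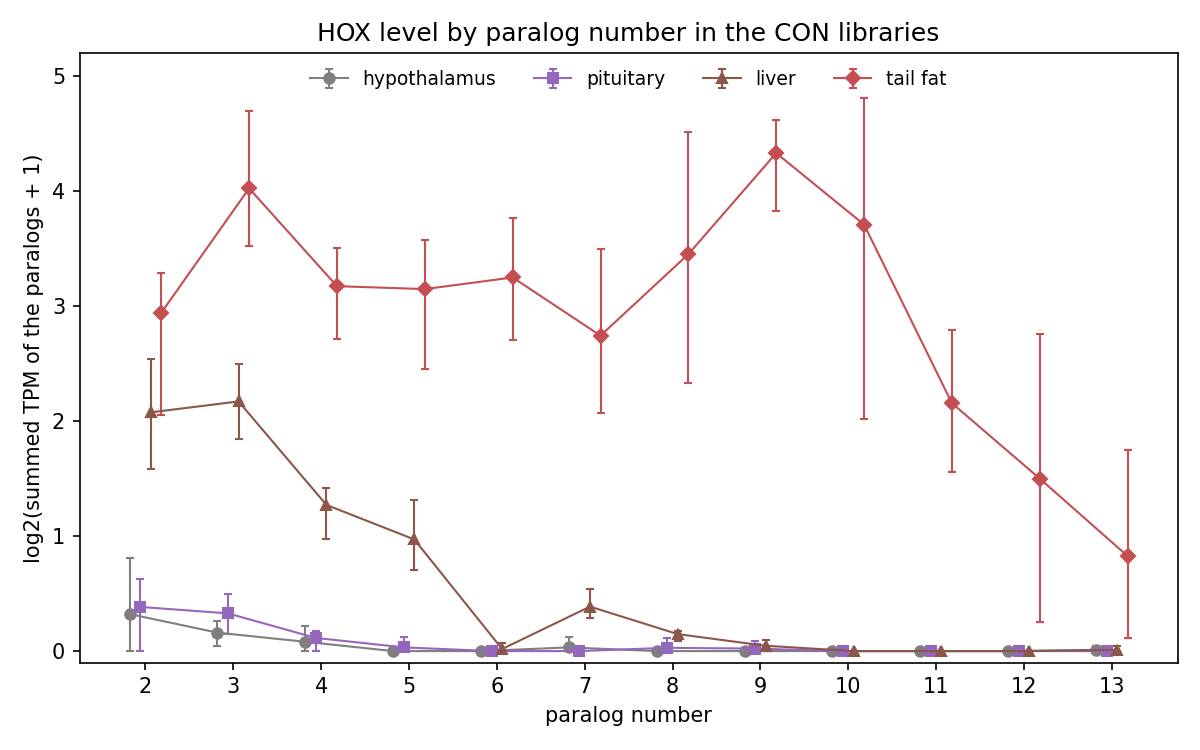
Summed level of the paralogs of each number from 2 to 13, as log2(TPM + 1), in the CON libraries of the 4 tissues. Points are log2 of the mean sum plus 1 over 4 libraries and bars span the lowest to the highest library: the mean sum of liver is at most 0.308 TPM from number 6 onward (highest library 0.45 TPM), whereas tail fat stays up to number 10 and then declines.

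In tail fat, cluster A held members of every zone. HOXA2, a hindbrain and second pharyngeal arch gene, stood at 8.06, 5.74, 2.60 and 5.23 TPM in CON libraries 1 to 4 and at 7.49, 5.52, 6.16 and 12.18 TPM in SA. HOXA5, a trunk gene also studied in fat cells, read 4.56, 7.82, 3.31 and 8.45 TPM in CON and 2.25, 1.30, 1.51 and 2.88 TPM in SA. Its 2 diet groups did not overlap, whereas those of HOXA2 did. HOXA7, a thoracic gene, had 1.89, 7.10, 1.35 and 1.68 TPM in CON and 11.84, 5.44, 2.94 and 2.64 TPM in SA, with CON library 2 and SA library 1 highest in their groups. HOXA9, a gene of the lower trunk, was at 5.28, 9.78, 5.21 and 7.08 TPM in CON and 4.31, 2.34, 2.65 and 2.32 TPM in SA, again without overlap. HOXA10, which patterns the lumbar region, was at 8.74, 14.82, 2.80 and 4.71 TPM in CON and 21.23, 2.16, 1.92 and 3.36 TPM in SA. The same pair of libraries, CON 2 and SA 1, was highest for HOXA10. HOXA4 ranged from 0.60 to 3.37 TPM over the 8 tail fat libraries, and HOXA11 and HOXA13 reached at most 1.36 and 0.96 TPM.

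Cluster B was carried by its anterior part. HOXB3, a hindbrain and neck gene, had the highest mean of all members in tail fat CON, with 10.45, 7.39, 10.46 and 15.88 TPM, and read 3.17, 3.77, 7.06 and 10.21 TPM in SA. HOXB7, a trunk gene, read 2.92, 3.15, 1.86 and 2.82 TPM in CON and 1.68, 3.06, 1.72 and 0.63 TPM in SA. It had the smallest coefficient of variation over the 8 libraries among the 19 members tested for diet in tail fat, 40.2%. HOXB6 ranged from 0.45 to 3.36 TPM, HOXB2 from 0.06 to 1.94 TPM and HOXB4 from 0.06 to 2.47 TPM. HOXB5, HOXB8 and HOXB9 stayed at or below 0.67 TPM. HOXB13, the terminal gene of the cluster, whose loss lengthens the tail of the mouse, reached at most 0.03 TPM in tail fat. In the RefSeq gene table of another sheep assembly (ARS-UI_Ramb_v3.0), the spans of HOXB7, HOXB8 and HOXB9 overlap, as do those of HOXB3 and HOXB4 and those of HOXA4 and HOXA5 with HOXA3, so how reads were divided among these genes is uncertain. The library kit kept strand, per the labels, but the strand setting of the counting is not given in the sources used here, so antisense RNAs of the clusters cannot be told apart from the HOX genes.

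In cluster C, HOXC6 and HOXC9 were at 1 TPM or more in all 8 tail fat libraries, and the members from HOXC6 to HOXC13 reached at most 0.06 TPM in the other tissues. HOXC6, a thoracic gene, read 6.47, 10.30, 5.07 and 4.73 TPM in CON and 2.86, 7.92, 5.01 and 1.01 TPM in SA. HOXC9, a thoracic gene known for high levels in subcutaneous fat, read 10.47, 6.57, 3.91 and 6.37 TPM in CON and 1.23, 5.91, 5.61 and 3.14 TPM in SA. The diet groups of both genes overlapped. HOXC5 was at 1.14, 2.85, 0.55 and 1.24 TPM in CON and 2.66, 2.53, 1.46 and 1.74 TPM in SA. For HOXC10, a marker of lower-body fat in people, the values were 2.52, 12.09, 0.25 and 1.95 TPM in CON and 12.72, 1.95, 5.06 and 4.30 TPM in SA. For HOXC11, a hind limb and sacral gene, they were 2.03, 5.59, 1.81 and 3.49 TPM in CON and 3.20, 2.28, 1.69 and 0.80 TPM in SA. CON library 2 was the highest CON library for HOXC5, HOXC10 and HOXC11. HOXC12 had the largest coefficient of variation of the 19 members, 167.5%, with 0.19 to 5.74 TPM in CON and 0.53 to 18.95 TPM in SA. HOXC13, a gene of the tail bud and of hair follicles, ranged from 0.00 to 2.92 TPM, and HOXC4 from 0.22 to 1.20 TPM.

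Cluster D was present from HOXD3 to HOXD9 in tail fat and stayed under 1 TPM beyond. HOXD3, a neck gene, read 2.11, 3.07, 2.69 and 8.98 TPM in CON and 0.54, 2.47, 2.63 and 0.25 TPM in SA. HOXD4, which acts at the border of hindbrain and neck, read 3.32, 2.62, 3.78 and 5.48 TPM in CON and 0.50, 0.54, 0.56 and 0.00 TPM in SA, and its groups did not overlap. HOXD8 was at 9.14, 21.90, 4.54 and 3.36 TPM in CON and 7.42, 6.26, 5.17 and 2.37 TPM in SA. HOXD9, a gene of the lower trunk and limb, was at 6.33, 6.84, 4.04 and 3.72 TPM in CON and 4.80, 10.00, 6.37 and 2.02 TPM in SA. HOXD8 and HOXD9 overlapped between diets. HOXD10 reached at most 0.29 TPM, HOXD12 and HOXD13, which pattern digits and genitalia, were listed at 0, and HOXD1 was listed at 0 in 7 of the 8 libraries and at 0.09 TPM in CON library 2.

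Tail fat libraries CON 2 and SA 1 stood apart from the other 6. They had SELENOP at 972 and 598 TPM against 46.0 to 197 TPM, CCDC152 at 0.12 and 0.07 TPM against 57.8 to 186 TPM, and mitochondrial shares of 22.6% and 25.7% against 36.5% to 70.8%. Both exceeded the other 6 libraries in 33.7% of the 11185 genes tested for diet in tail fat and fell below them in 1.77%. Of the 35 HOX genes, both were above the other 6 for 8 (HOXA7, HOXA10, HOXB4, HOXB9, HOXC5, HOXC10, HOXC12 and HOXC13) and below them for 0. Among the 19 HOX genes tested, the share above was 26.3%, below that of all tested genes. Paralogs 9 to 13 made up 60.4% of the HOX sum in SA library 1 and 43.4% in CON library 2, against 29.5% to 41.1% in the other 6. Skeletal muscle markers, summed over 5 genes, were highest in these 2 libraries of their diets, with 109.3 TPM in CON 2 and 50.5 TPM in SA 1 against 1.31 to 14.7 TPM in the others. The 9 fibroblast markers were also highest there, with 785 and 1201 TPM against 240 to 664 TPM, and the part of these markers in the HOX levels was not tested.

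The tissue comparison asked which HOX genes differ between tissues within the control diet. Genes that reached 1 TPM in 4 or more of the 8 libraries were tested with limma on log2(TPM + 1), with Benjamini-Hochberg adjustment across every tested gene, and called at an adjusted p under 0.05. Changes below are on that log2 scale with their standard error (SE). A HOX gene often passed this filter only through the tissue where it was high, mostly tail fat, and so had to differ. The counts of tested members are therefore a description, as are the changes and adjusted p of such members. The count without the filter stands beside the counts of tested members.

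In tail fat against liver, 15 members were tested, 13 were higher in tail fat and 0 were lower, where 18.0% of the 12397 genes tested were higher and 22.4% lower. That split of all genes turned with scaling, to 41.9% higher and 17.3% lower without mitochondrial and ribosomal RNA (19 of 21 HOX genes higher) and to 31.9% and 24.9% after quantile normalization (14 of 15). Without the filter, 19 of 32 members with any signal were higher and 0 lower, against 11.5% higher among 22780 genes. Over all 35 members, tested or not, every tail fat CON library stood above every liver CON library in 21 and below in 0. Among tested genes the shares were 18.5% and 18.4%. The 13 comprised HOXB3, HOXD3 and HOXD4 of paralogs 1 to 4, HOXA5, HOXA7, HOXB7, HOXC6 and HOXD8 of paralogs 5 to 8, and HOXA9, HOXA10, HOXC9, HOXC11 and HOXD9 of paralogs 9 to 13.

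Several of the 13 also had signal in liver. HOXB3 averaged 11.04 TPM ± 3.53 in tail fat and 3.50 ± 0.877 in liver (SD, n = 4 each), a change of 1.39 ± 0.35 (SE, limma adjusted p = 0.00491). In the SA libraries the change of HOXB3 was 0.27 with a limma adjusted p of 0.595, and it was not called there. HOXA5 averaged 6.04 TPM ± 2.49 against 0.89 ± 0.288 (SD, n = 4 each), a change of 1.83 ± 0.33 (SE, limma adjusted p = 0.000394). HOXB7 averaged 2.69 TPM ± 0.569 against 0.143 ± 0.0900 (SD, n = 4 each), a change of 1.68 ± 0.23 (SE, limma adjusted p = 3.01e-05). HOXA7 and HOXD8 changed by 1.59 and 2.97. HOXA7, HOXB7 and HOXD8 passed the filter through tail fat alone, since no liver library reached 1 TPM. HOXA5 reached 1 TPM in 1 liver CON library and so also passed through its 4 tail fat CON libraries. The changes and adjusted p of these genes are therefore a description. HOXA9, HOXA10, HOXC6, HOXC9, HOXC11, HOXD3 and HOXD4 were listed at 0 in all 4 liver CON libraries, so no fold is given, and HOXD9 reached at most 0.03 TPM there. Not called were HOXA2, with 5.41 TPM ± 2.24 against 2.27 ± 1.23 (SD, n = 4 each) and a change of 0.98 ± 0.38 (SE, limma adjusted p = 0.0546), and HOXB2, with a change of 0.18 ± 0.28 (SE, limma adjusted p = 0.637). HOXA2 was called higher after quantile normalization, without mitochondrial and ribosomal RNA, in a joint fit of 32 libraries and in the SA libraries. It was not called with a pseudocount of 0.1 TPM or with no filter. Leaving out any of the 8 libraries left 13 or 14 HOX genes called, with HOXA2 called in 3 of these 8 fits.

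Tail fat exceeded hypothalamus in all 14 members tested, where 12.6% of 14175 genes were higher and 50.7% lower. All 14 passed the filter through tail fat alone, since no hypothalamus library reached 1 TPM for them, so their calls and changes are a description. Without the filter, 24 of 32 members were higher against 8.91% of genes, and 1, HOXD1, was lower, against 34.2%. Over all 35 members, tested or not, every tail fat CON library stood above every hypothalamus CON library for 25 and below for 1, HOXD1. Among tested genes the shares were 12.0% and 44.1%. HOXB3 changed by 3.39 ± 0.25 (SE, limma adjusted p = 4.51e-07), HOXA2 by 2.45 ± 0.29 (SE, limma adjusted p = 1.98e-05) and HOXA7 by 1.79 ± 0.33 (SE, limma adjusted p = 0.000724). Both comparisons share the tail fat CON libraries.

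Liver carried the anterior members. HOXB3 stood at 3.67, 4.64, 3.11 and 2.59 TPM in liver CON and at 4.71, 5.62, 1.92 and 6.71 TPM in liver SA. HOXA2 stood at 3.10, 3.54, 1.35 and 1.08 TPM in CON and at 1.62, 2.16, 0.91 and 1.07 TPM in SA. HOXB2 ranged from 0.64 to 1.29 TPM in CON and from 0.06 to 1.30 TPM in SA, and for all 3 genes the diets overlapped. Against hypothalamus, 2 members were tested and both were higher in liver, where 20.2% of 14532 genes were higher and 60.1% lower. In hypothalamus CON, HOXA2 reached at most 0.48 TPM and HOXB3 at most 0.20 TPM. Both passed the filter through liver alone and had to differ, so their calls and changes are a description. HOXA2 averaged 2.27 TPM against 0.128 TPM, a change of 1.47 ± 0.27 (SE, limma adjusted p = 0.00051). HOXB3 averaged 3.50 TPM against 0.118 TPM, a change of 1.99 ± 0.16 (SE, limma adjusted p = 8.88e-07). Without the filter, 9 of 18 members were higher against 15.1% of genes, among them HOXA2, HOXA4, HOXA5, HOXB2, HOXB3, HOXB4, HOXB7 and HOXD8, and HOXD1 was lower, against 44.7%.

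The effect of succinic acid was called for 0 of the 2 HOX genes tested in liver, where 59.1% of 11582 genes were lower and 5.21% higher. HOXA2 changed by -0.37 ± 0.29 (SE, limma adjusted p = 0.283) and HOXB3 by 0.28 ± 0.30 (SE, limma adjusted p = 0.428), against a median of -0.83 over all tested genes. HOXB3 was called higher in SA after quantile normalization, by 1.01 (limma adjusted p = 0.0292), once mitochondrial and ribosomal RNA were removed, by 1.28 (limma adjusted p = 0.0383), and without SA library 3, by 0.58 (limma adjusted p = 0.0456). In the first 2 of these settings the median of all genes was -0.09 and 0.03. HOXA5, with 0.79, 1.30, 0.84 and 0.63 TPM in CON and 0.09, 0.31, 0.19 and 0.26 TPM in SA, and HOXB4, with 0.83, 1.23, 0.39 and 1.44 TPM in CON and 0.00, 0.32, 0.08 and 0.04 TPM in SA, did not overlap between diets. Non-overlap of that direction held for 54.2% of tested genes, a set that does not include HOXA5 and HOXB4. The mitochondrial share and the hepatocyte marker sum of the liver libraries also did not overlap between diets. SELENOP ran from 4282 to 5758 TPM in liver CON and from 241 to 773 TPM in SA. CCDC152 was listed at 0 in liver CON and at 168 to 842 TPM in SA. The part of these differences in the HOX values was not tested.

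HOXD1 was the exception to the tissue order. Background knowledge places this anterior gene in the early hindbrain and in sensory neurons. Its values in hypothalamus were 0.34, 0.27, 2.50 and 3.43 TPM in CON and 0.34, 1.75, 1.58 and 1.11 TPM in SA. In pituitary they were 1.89, 2.52, 2.24 and 0.81 TPM in CON and 2.17, 2.26, 2.61 and 1.73 TPM in SA. All 8 liver libraries were listed at 0, as were 7 of 8 tail fat libraries. HOXD1 made up more than 50% of the HOX sum in 14 of the 16 brain libraries, with a range of 39.1% to 88.6%.

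**Figure D4:**
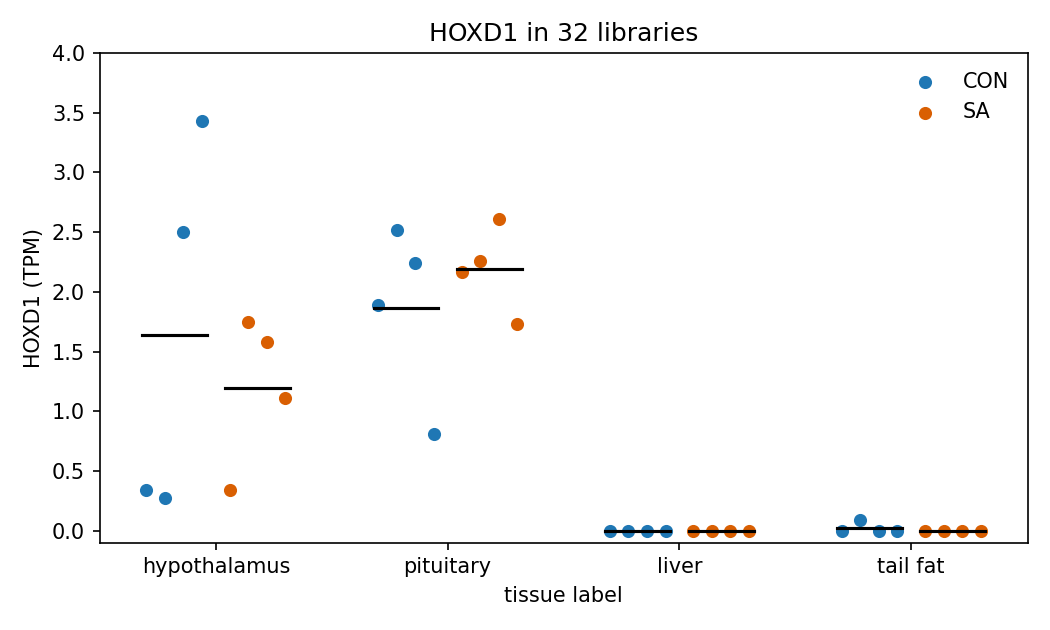
HOXD1 in TPM in each of the 32 libraries, by tissue label and diet. Points are libraries, lines are group means, and signal above 0.09 TPM is confined to the libraries labelled hypothalamus (0.27 to 3.43 TPM) and pituitary (0.81 to 2.61 TPM).

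In pituitary against hypothalamus, HOXD1 was the 1 member tested and was not called, with 1.87 TPM ± 0.749 against 1.64 ± 1.58 (SD, n = 4 each) and a change of 0.29 ± 0.43 (SE, limma adjusted p = 0.634), where 31.0% of 14427 genes were called. The 2 hypothalamus CON libraries with HOXD1 above 2 TPM, numbers 3 and 4, also had the most MBP, a myelin gene, with 11797 and 7810 TPM against 2801 and 2385 TPM, and its part in the HOXD1 level was not tested. Diet changed HOXD1 by -0.10 ± 0.44 in hypothalamus (SE, limma adjusted p = 0.987) and by 0.19 ± 0.27 in pituitary (SE, limma adjusted p = 0.754). In these tissues 0 of 14126 and 0 of 14472 genes were called for diet by limma, and 493 (3.49%) and 218 (1.51%) had an unadjusted p under 0.05. HOXA2 reached 2.05 TPM in pituitary SA library 3 and at most 0.42 TPM in the other 7 pituitary libraries.

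In tail fat the diet comparison asked whether succinic acid changed the HOX code. Of 19 HOX genes tested, HOXD4 fell and 18 were not called, where 0.420% of the 11185 genes tested fell and 0.277% rose. HOXD4 averaged 3.80 TPM ± 1.22 in CON and 0.400 ± 0.268 in SA (SD, n = 4 each), a change of -1.77 ± 0.34 (SE, limma adjusted p = 0.0277). HOXD4 was at 1 TPM or more in the 4 CON libraries alone, so it passed the filter through the group where it was high and the call is a description. The direction held in every comparison of a CON with an SA library, and the call did not hold in every setting. It was lost with a pseudocount of 0.1 TPM (limma adjusted p = 0.0552), with no filter (limma adjusted p = 0.12), and without CON library 1 (0.0861), CON 4 (0.079), SA 1 (0.0638), SA 2 (0.0678), SA 3 (0.1) or SA 4 (0.109), each a limma adjusted p. Without both libraries that stood apart, CON 2 and SA 1, the change was -1.93 (limma adjusted p = 0.00241).

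**Figure D5:**
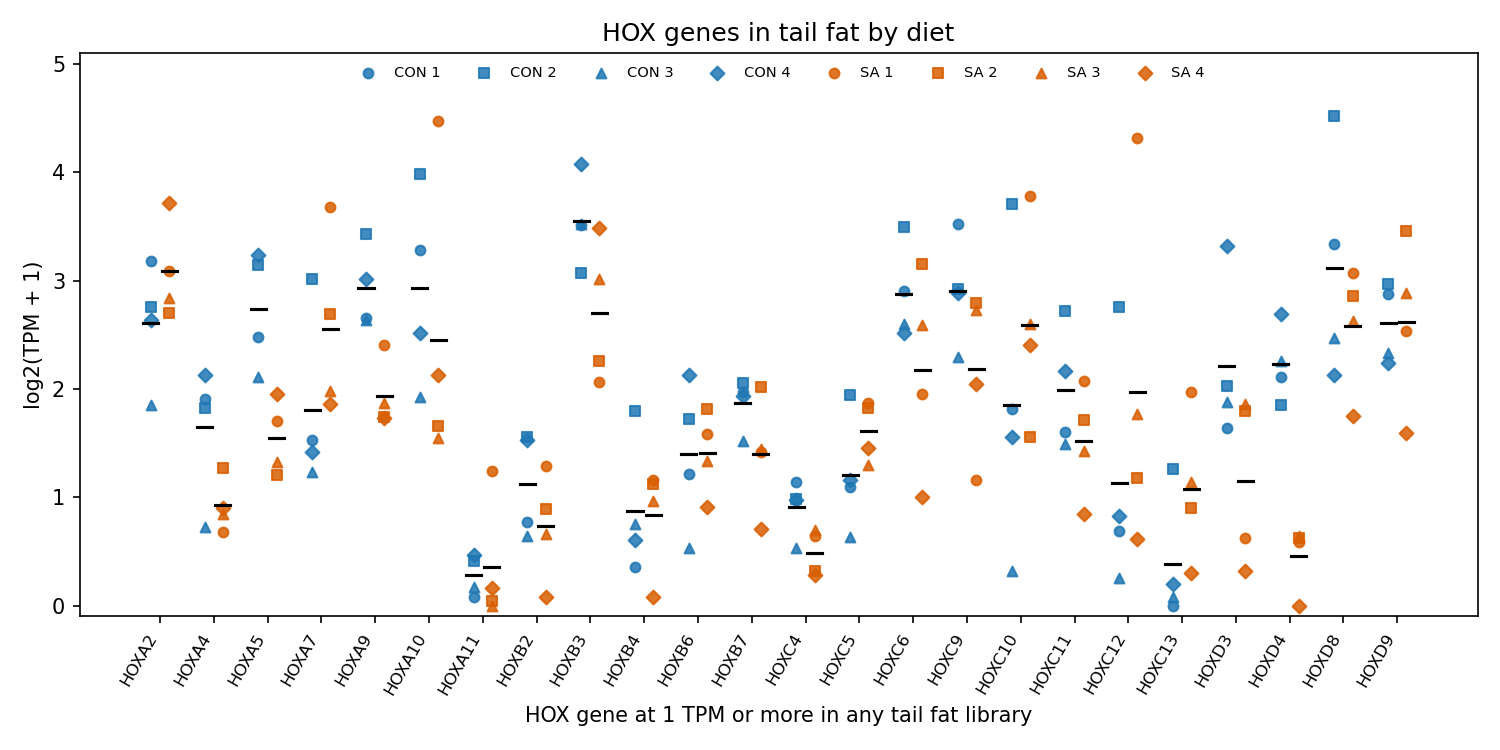
The plot shows 24 HOX genes that reached 1 TPM in any tail fat library, as log2(TPM + 1), for CON (blue) and SA (orange). Each symbol is a library and each line a group mean: HOXA5, HOXA9 and HOXD4 show no overlap between diets, and CON 2 or SA 1 is the highest point for HOXA7, HOXA10, HOXC10, HOXC12 and HOXC13.

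The other 18 tested members did not pass the test. Over all 35, mean levels were lower in SA for 21 members, higher for 10 and equal for 4, and the median change of the 19 tested was -0.48, against -0.06 for all tested genes. By position, the median was -0.84 for 5 tested members of paralogs 1 to 4, -0.47 for 7 of paralogs 5 to 8 and -0.48 for 7 of paralogs 9 to 13. Of all 35 members, tested or not, 4 had every SA library below every CON library, among them HOXA5, HOXA9 and HOXD4. The reverse held for 0 members. Among tested genes the shares were 5.05% and 4.63%. HOXA5 changed by -1.19 ± 0.42 (SE, limma adjusted p = 0.222) and HOXA9 by -1.0 ± 0.41 (SE, limma adjusted p = 0.297). HOXD3 changed by -1.07 ± 0.49 and HOXB3 by -0.84 ± 0.47 (SE, limma adjusted p = 0.339 and 0.431). Members with higher means in SA included HOXA7, by 0.75 ± 0.52, HOXC10, by 0.73 ± 0.65, and HOXC12, by 0.84 ± 0.73 (SE, limma adjusted p = 0.535, 0.64 and 0.639). HOXD9 and HOXB6 both changed by 0.01.

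These calls depended on scaling and on how the spread was estimated. After removal of mitochondrial and ribosomal RNA, 4 members were called lower, HOXA5, HOXA9 and HOXD4 among them, with a median of all genes of -0.39 and 9.43% of genes called lower. In that scaling the HOX sum ran from 191.5 to 272.9 TPM in CON and from 125.8 to 162.7 TPM in SA and did not overlap, whereas as deposited it overlapped. A joint fit of all 32 libraries called 7 lower, namely HOXA4, HOXA5, HOXA9, HOXB3, HOXC9, HOXD3 and HOXD4, with 7.21% of genes called lower. The 9 adipocyte markers summed to 26864, 75968, 11286 and 11893 TPM in CON and 45981, 61149, 42145 and 10980 TPM in SA, with overlap between diets, and all 9 exceeded 1 TPM in every tail fat library. Of 5 skin epidermis markers, KRT1, DSG1, DSG3 and TP63 stayed under 1 TPM in every tail fat library. The other, KRT10, was at 1 TPM or more in all of them. The 5 summed to 8.97 to 16.8 TPM in CON and 7.72 to 20.3 TPM in SA. In tail fat 6 neuron markers summed to at most 0.8 TPM and 5 cartilage markers to at most 2.84 TPM.

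Whether the diet effect differed between tissues was tested with an interaction over the 32 libraries. Of 20 members tested, 3 were called, where 27.0% of 16360 genes were: HOXD4 (F = 34.7, limma adjusted p = 1.33e-07), HOXA9 (F = 9.81, limma adjusted p = 0.00174) and HOXA5 (F = 9.08, limma adjusted p = 0.00252). Outside tail fat, HOXD4 reached at most 0.25 TPM, HOXA9 at most 0.04 TPM and HOXA5 at most 1.30 TPM, and HOXA5 was listed at 0 in all 16 brain libraries. The interaction of HOXD4 and HOXA9 therefore restates their difference in tail fat. That of HOXA5 compares tail fat with liver and with libraries in which no diet effect could appear. Libraries near 0 add almost no spread to an estimate pooled over 32 libraries, so these adjusted p understate the spread within tail fat. The fit of tail fat alone called HOXD4 and not HOXA5 or HOXA9.

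TALE homeodomain proteins (PBX, MEIS and PKNOX) bind DNA together with HOX proteins. Of 8 of these tested against hypothalamus, all were lower in tail fat and all were lower in liver, where 50.7% and 60.1% of all tested genes were lower. MEIS2 averaged 82.9 TPM ± 18.9 in hypothalamus, 42.3 ± 23.0 in pituitary, 3.01 ± 0.684 in liver and 2.43 ± 1.31 in tail fat (SD, n = 4 each, CON). Tail fat exceeded liver in 3 of 8, where 18.0% of tested genes were higher: MEIS1 by 1.00 ± 0.29 (SE, limma adjusted p = 0.0117), PBX3 by 1.24 ± 0.46 (SE, limma adjusted p = 0.0408) and MEIS3. MEIS3 stayed under 1 TPM in every liver CON library. It passed the filter through tail fat alone here, and through hypothalamus alone in liver against hypothalamus, so no change is given. For diet, 0 of 8 were called in tail fat and 5 of 5 fell in liver, where 59.1% of tested genes fell.

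Polycomb and trithorax proteins keep HOX clusters shut or open. Of 24 tested in tail fat against liver, 4 were higher (EZH1, PHC1, PHC2 and PHC3) and 1, JARID2, was lower, a share of higher genes near the 18.0% of all tested genes, where 22.4% were lower. PHC3, a subunit of polycomb complex PRC1, changed by 1.92 ± 0.49 (SE, limma adjusted p = 0.00507), with 5.15 to 27.2 TPM in tail fat CON and 1.10 to 4.27 TPM in liver CON. EZH2, the catalytic subunit of polycomb complex PRC2, stood at 0.53 to 3.24 TPM in the CON libraries of the 4 tissues. In liver 11 of 22 fell with SA, below the 59.1% of all tested genes, and in tail fat 0 of 21 were called for diet. The caudal and ParaHox genes CDX1, CDX2, CDX4, PDX1, GSX1 and GSX2 and the cluster neighbours EVX1 and EVX2 stayed under 1 TPM in every library. Of the 6 other genes near the clusters (MTX2, SKAP1, SKAP2, SNX10, CBX5 and SMUG1) tested in tail fat against liver, SKAP2 and SNX10 were lower, where 22.4% of tested genes were, and 0 were higher, and 0 of 6 were called for diet in tail fat.

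Other genes of body position also differed in level between tail fat and liver. TBX15, a gene of trunk skin and subcutaneous fat, read 4.59 to 17.1 TPM in tail fat CON and was listed at 0 in liver CON. EN1, which marks ventral ectoderm, some dermis and the midbrain border, read 3.80 to 7.87 TPM in tail fat CON and was listed at 0 in liver CON, and both passed the filter through tail fat alone, so no change is given. IRX3 averaged 8.64 TPM ± 4.93 in tail fat CON against 0.21 ± 0.147 in liver CON (SD, n = 4 each). Conversely, GATA4, a gene of foregut and heart, and HAND2 stood at 6.88 to 8.79 TPM and 4.76 to 8.42 TPM in liver CON and at most at 0.09 TPM and 0.07 TPM in tail fat CON. Of 10 trunk, limb and fat position genes tested in this comparison, 4 were higher in tail fat and 5 lower, where 18.0% and 22.4% of tested genes were. The 4 higher genes were under 1 TPM in every liver CON library, as were HAND2 and GATA4 in tail fat CON. Such genes passed the filter through the tissue where they were high and had to differ, so these counts are a description. In tail fat 0 of 7 were called for diet.

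The 2 brain labels, between which the 1 HOX gene tested, HOXD1, was not called, differed in forebrain position genes. With no filter, 1 of 13 HOX genes was called between them, where 17.5% of 23765 genes were. OTX2, a regulator of the forebrain and midbrain, averaged 0.545 TPM ± 0.471 in hypothalamus CON and 39.1 ± 20.4 in pituitary CON (SD, n = 4 each). Of 16 forebrain and midbrain genes tested, 5 were higher in the pituitary label (OTX2, EMX2, LHX5, TCF7L2 and IRX3) and 10 lower, where 23.2% and 7.80% of genes were.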

How the data were processed

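RNA of 32 libraries was sequenced from oligo(dT)-selected, strand-marked libraries, per the labels. The deposited table gives TPM per gene, and the submitters' processing notes name fastp, HISAT2 and RSEM; no version or genome build is given there. Depth is unknown, so no counting intervals are given. Groups came from the labels. Each comparison used its own 8 libraries: limma 3.58.1 (R 4.3.3, trend and robust) on log2(TPM + 1), for genes that reached 1 TPM in 4 or more of 8 libraries, with Benjamini-Hochberg adjustment over all genes tested and a threshold of 0.05. The interaction used all 32 libraries. The fit was tested on simulated data. The HOX genes, gene lists and markers were chosen with earlier results of these data known. Values per library are given for members that passed a test or reached 1 TPM in every library of a group, and ranges for the others. RefSeq supplied gene names for 34 of the 35 members and overlaps only. The 4 sheep of a group are the replicates, as far as the labels say. Values of 1 member and 1 position gene are not reported here, though counts and sums over members include that member, except those in the search for libraries far from their group.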

Additional observations from a re-analysis of the deposited data

Results flagged for a closer look

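In 58 groups of 4 libraries in which a HOX gene reached 1 TPM, 8 held a library far from the other 3 by Dixon's criterion. Its nominal rate of about 1 in 20 is for independent groups, whereas these share libraries. The share over all genes was not computed, so the count is a description. All 8 were in tail fat. Tail fat libraries CON 2 and SA 1 both exceeded the other 6 in 33.7% of tested genes and 26.3% of tested HOX genes. In CON library 2, HOXA7 was 7.10 TPM against 1.35 to 1.89 TPM, HOXC12 was 5.74 TPM against 0.19 to 0.77 TPM and HOXC13 was 1.40 TPM against 0.00 to 0.15 TPM. In SA library 1, HOXA9 was 4.31 TPM against 2.32 to 2.65 TPM, HOXA10 was 21.23 TPM against 1.92 to 3.36 TPM, HOXA11 was 1.36 TPM against 0.00 to 0.12 TPM and HOXC12 was 18.95 TPM against 0.53 to 2.41 TPM. In CON library 4, HOXD3 was 8.98 TPM against 2.11 to 3.07 TPM.

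The diet effect differed between tissues, by the limma interaction test, for HOXA5 (adjusted p = 0.00252), HOXA9 (adjusted p = 0.00174) and HOXD4 (adjusted p = 1.33e-07), where 27.0% of 16360 genes were called. HOXD4 and HOXA9 reached at most 0.25 and 0.04 TPM outside tail fat and HOXA5 was listed at 0 in the brain libraries. No diet effect could therefore appear there, and the test of HOXD4 and HOXA9 restates their tail fat difference. Such libraries add almost no spread to the pooled estimate, so these adjusted p understate the spread within tail fat. Fitted alone, tail fat gave a call for HOXD4 and not for HOXA5 or HOXA9.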

How the results depend on the processing

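No HOX gene tested in the main fit and called in any setting changed direction between settings. The balance of all called genes did turn in some settings. Examples were diet in liver and tail fat against liver, both without mitochondrial and ribosomal RNA. The cause of the changes below was not tested. Leaving out 1 library at a time gave, for diet, 0 to 2 genes in hypothalamus, 0 to 1 in pituitary, 8 to 314 in tail fat (314 without CON library 2), and 0 to 1 HOX genes in both liver and tail fat. For diet, the joint fit of 32 libraries called 3 genes in hypothalamus and 4 in pituitary. In liver, 4326 genes were called after quantile normalization and 3656 without mitochondrial and ribosomal RNA, 2040 of them higher and 1616 lower, and the HOX count was 2 with no filter and 1 after quantile normalization, without mitochondrial and ribosomal RNA or in the joint fit. In tail fat the 78 genes became 0 with no filter, 415 after quantile normalization, 1377 without mitochondrial and ribosomal RNA, 1938 in the joint fit and 398 without CON 2 and SA 1, a setting chosen after seeing the data. The HOX count there was 0 with a pseudocount of 0.1 or no filter, 4 without mitochondrial and ribosomal RNA and 7 in the joint fit. Between tissues, tail fat against liver gave 8017 genes without mitochondrial and ribosomal RNA, and pituitary against hypothalamus gave 1855 in the joint fit and 1110 in the SA libraries. With no filter the HOX counts were 25 for tail fat against hypothalamus, 1 for pituitary against hypothalamus and 10 for liver against hypothalamus, which was 5 in the joint fit and 1 in the SA libraries. The interaction called 6 HOX genes after quantile normalization and 11 without mitochondrial and ribosomal RNA. Genes detected in at least 2 of 4 libraries numbered 1 in each hypothalamus group, 1 in pituitary CON, 4 in liver CON, 2 in liver SA and 19 in tail fat SA. At 0.5 TPM they were 1 in pituitary CON, 4 in liver CON and 2 in liver SA, and without mitochondrial and ribosomal RNA 1 in pituitary CON and 2 in liver SA. Same-numbered libraries correlated between -0.34 and 0.29 in their deviations from the group means, not every library correlated best with its own number, and the numbers were not taken as pairs. The replicate block gave 413 diet genes in tail fat, kept HOXD4 called (limma adjusted p = 0.00376), called HOXA2 higher in tail fat than in liver (limma adjusted p = 0.0365) and changed no other HOX call. Removing mitochondrial and ribosomal RNA moved the median change of all genes from -0.13 to 0.53 in tail fat against liver, from -0.83 to 0.03 for diet in liver and from -0.06 to -0.39 for diet in tail fat. Depth is unknown, so values near 0 TPM are not shown to be absent.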
